A study of Mus musculus with 141 samples.

Results

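The 32 genes described here are type I interferon response genes, chosen by name from the known interferon-stimulated genes and regulators. No measured value entered the rule, but earlier results of these data were known when it was made. All 32 were held by the gene tables, out of 24423 genes. They were measured by RNA-seq in liver, lung and kidney of 47 Collaborative Cross (CC) strains, which are recombinant inbred mouse lines bred from several classical and wild-derived founders. Each strain gave 1 adult male of 8 to 12 weeks and each mouse gave 1 library per tissue. All mice were kept in clear-air chambers for 6 hours a day on weekdays during 2 weeks, so no group was given an interferon, a virus or a pollutant. With 1 mouse per strain, the difference between strains and the difference between mice cannot be told apart.

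Type I interferons (the interferon-alpha family and interferon-beta) bind a shared receptor, Ifnar1 with Ifnar2, which activates the kinases Jak1 and Tyk2. Downstream of these kinases, Stat2 and Irf9 take part in a complex that binds interferon-stimulated response elements in the promoters of many genes. The products sense viral RNA, block viral replication, or act back on the pathway. Uninfected tissues carry a low, tonic level of many of these transcripts. The mice described below were given no agent, but whether any of them carried an infection was not tested. Interferon-gamma, the type II interferon of T and NK cells, signals through another receptor, and its targets overlap with the type I response.

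The response element core was looked for as GAAANNGAAA, or TTTCNNTTTC on the other strand, in RefSeq promoter windows of assembly GRCm38.p6 that run from 250 bases before to 50 bases after each start. A window was held for 22 of the 32 genes. The core stood in 12 of these 22 genes. By window it stood in 12 of their 24, beside 3.45% of all 32544 windows. The genes with a match were Isg15, Ifit1, Ifit3, Stat2, Oas1a, Oas1g, Oas3, Rsad2, Ddx58, Ifih1, Bst2 and Eif2ak2. In Ddx58, Ifih1 and Eif2ak2 it lay after the start. The gamma-activated site TTCNNNGAA, which reads the same on both strands, stood in 5 of the 22 genes. By window it stood in 5 of their 24, beside 8.33% of all windows. The 250 bases before the start are shown for 4 genes that hold the core and stand for 3 tissue patterns described below (Isg15 and Ifit1 share one, Bst2 and Rsad2 have others), with the core letters in capitals, 5′ to 3′ in the direction of the gene.
Isg15, chr4:156200819-156201068, minus strand: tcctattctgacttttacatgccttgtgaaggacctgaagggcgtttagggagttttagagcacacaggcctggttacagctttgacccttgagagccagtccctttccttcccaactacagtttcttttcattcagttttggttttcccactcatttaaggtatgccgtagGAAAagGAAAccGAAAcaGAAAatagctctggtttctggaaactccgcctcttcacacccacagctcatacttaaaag
Ifit1, chr19:34640639-34640888, plus strand: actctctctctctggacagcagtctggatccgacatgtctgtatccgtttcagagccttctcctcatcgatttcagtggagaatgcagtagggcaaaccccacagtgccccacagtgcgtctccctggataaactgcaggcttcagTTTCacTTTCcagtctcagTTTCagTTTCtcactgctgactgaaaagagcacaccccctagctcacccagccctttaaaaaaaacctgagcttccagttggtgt
Rsad2, chr12:26456453-26456702, minus strand: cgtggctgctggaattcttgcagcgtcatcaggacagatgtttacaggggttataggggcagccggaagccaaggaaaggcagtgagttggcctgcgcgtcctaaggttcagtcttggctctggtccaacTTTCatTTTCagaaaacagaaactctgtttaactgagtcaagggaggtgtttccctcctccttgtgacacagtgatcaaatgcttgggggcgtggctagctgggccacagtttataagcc
Bst2, chr8:71537473-71537722, minus strand: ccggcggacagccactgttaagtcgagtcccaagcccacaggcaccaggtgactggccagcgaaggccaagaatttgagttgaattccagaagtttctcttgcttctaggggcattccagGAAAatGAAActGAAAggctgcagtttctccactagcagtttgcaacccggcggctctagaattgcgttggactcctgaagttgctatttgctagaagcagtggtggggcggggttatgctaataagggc
Isg15 held 3 overlapping matches, the first beginning 78 bases before the start, and Bst2 held 2 overlapping matches from 130 bases. Ifit1 held 2 separate matches on the other strand from 104 bases, and Rsad2 held 1, on the other strand, at 120 bases. Several genes sit in clusters. In the files' mouse build, mm9, 7 of the 32 lie on chromosome 5, among them Oas2 at chr5:121180342-121199862, Oas3 at chr5:121203107-121227670 and Oas1a at chr5:121346265-121357536. Ifit2 (chr19:34625184-34650909), Ifit3 (chr19:34658021-34663221) and Ifit1 (chr19:34715361-34724499) are neighbours, as are Rsad2 (chr12:27127618-27141317) and Cmpk2 (chr12:27154069-27164700).

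Libraries held between 1738046 and 42158454 counts, and the shallowest 4 were 2 livers and 2 lungs. The labelled tissues carried their own markers, with 4 of 4 hepatocyte markers higher in liver than in either other tissue and 4 of 4 proximal tubule markers higher in kidney. Of the lung epithelium markers 3 were tested, and all 3 were higher in lung. Levels are given as CPM (counts scaled to a common library total, here with TMM factors), or as TPM (the same for transcripts after division by length) where genes are compared with each other. A pair of strains stood apart. The lung of CC040 was the highest lung for every one of the 24 members that passed the filter there (5.16% of all genes). CC016 was at or near the top in all 3 tissues. Results that rest on them are given with and without these strains, a choice made after seeing the data.

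Per length, Bst2, which encodes tetherin, the membrane protein that holds budding virions on the cell, was the most abundant member in liver and lung, with a median of 172 TPM in liver and 84.8 TPM in lung. In kidney Trim25, the ubiquitin ligase that modifies the RNA sensor RIG-I, had the highest median, 39.6 TPM, and Bst2 had 18.2 TPM. Ifi35 followed in lung at 84.0 TPM, and this difference from Bst2 is well within the spread of either gene over strains. At the other end stood the genes for the master regulator Irf7 and for Irf9, Mx1, Mx2, Oas1b and Oas1g.

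Irf7 had a median of 0.28 TPM in liver, 0.22 TPM in lung and 0.09 TPM in kidney, and held at most 3 counts in 31, 43 and 47 of the 47 libraries. Irf9, the DNA-binding partner of Stat2, held at most 3 counts in 29, 16 and 36 libraries. Mx1 and Mx2, the dynamin-like GTPases that block influenza and other viruses, held at most 3 counts in 30, 19 and 36 libraries (Mx1) and 31, 35 and 40 libraries (Mx2). Oas1g held at most 3 counts in 41, 43 and 45 libraries, and Oas1b was listed at 0 in every library. These 6 genes did not pass the filter, which asked for over 1 CPM in 30% of all libraries, and were not tested between tissues. All 6 are among the 10 members for which the files list more than 1 transcript. The 10 had a median count of 3 over libraries, against 73.5 for the 22 members with 1 transcript. Over all genes, 32.2% of those with more than 1 transcript and 55.5% of those with 1 passed the filter. Only reads with a unique alignment were counted, and what that did to these 6 genes was not tested.

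Oas1a and Oas1g, oligoadenylate synthetases that make the activator of RNase L, share 53.0% and 50.6% of their 50-base windows with each other, and Ifit3 shares 51.5% with its neighbour Ifit3b. Values of these genes are therefore uncertain. Low levels did not hide all variation between strains. Mx1 in lung ranged from 0 to 9.36 CPM with a median of 0.403 CPM, and CC040, CC030 and CC013 were the highest at 9.36, 4.4 and 3.04 CPM. Mx2 in liver had a median of 0.372 CPM and reached 8.49 CPM in CC068 and 6.42 CPM in CC027. In kidney other members also thinned out, with at most 3 counts in 29 libraries for Oas3, 21 for Zbp1, 20 for Ifi27, 18 for Ifih1 and 15 for Xaf1. On total counts without TMM factors, the highest floor that 3 counts set in any library was 1.73 CPM in liver, 1.06 in lung and 0.985 in kidney. A gene under that level may be present and unseen in the shallowest libraries. Median TMM factors were 0.643 in liver, 1.94 in lung and 1.32 in kidney. On the TMM scale of the levels given here, the floor therefore tends to be higher in liver and lower in lung and kidney. Counting error is all that this floor covers.

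**Figure D1:**
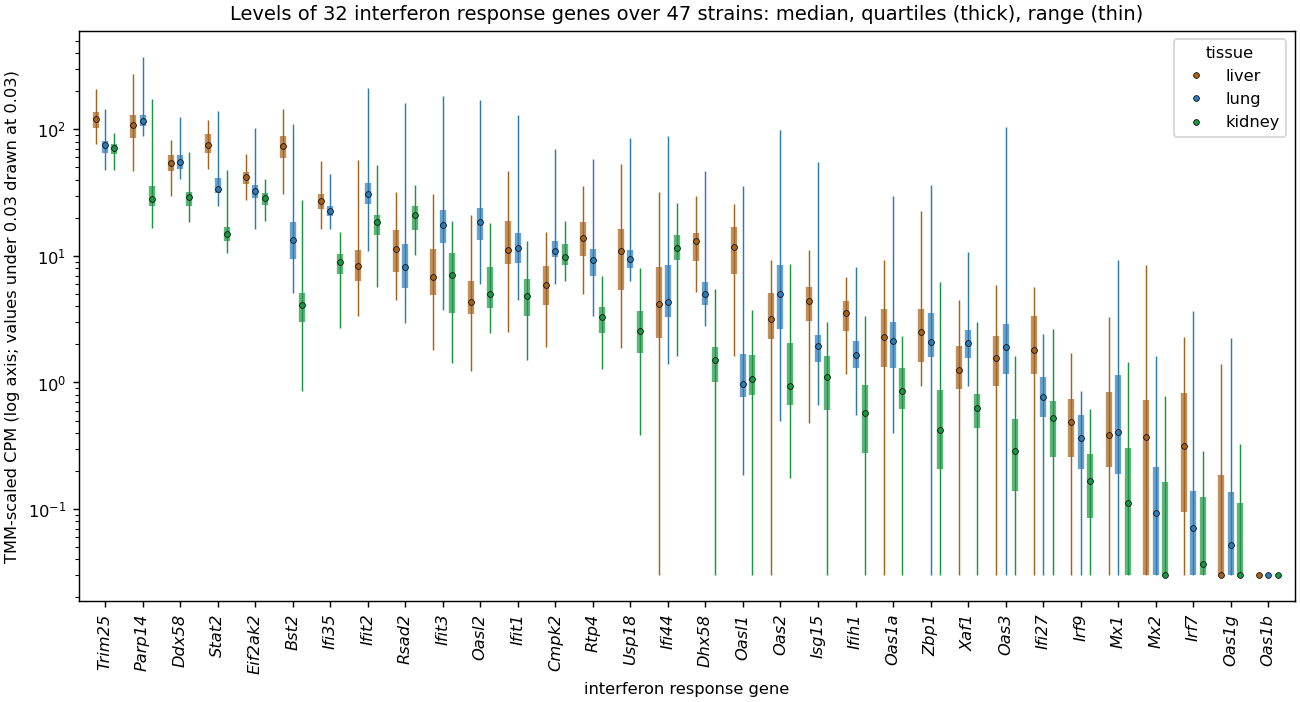
Levels of the 32 genes by tissue, as TMM-scaled CPM on a log axis, with the median (point), quartiles (thick bar) and range (thin bar) over 47 strains in each tissue. Long upper bars in lung are the library of CC040, for example Oas3 at 104 CPM over a median of 1.92 CPM, and Oas1b is at 0 throughout.

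The first comparison asked how the response differs between tissues of the same mice. Members were mostly lower in kidney than in liver and lung, and liver and lung were close to each other as a group with opposite differences for single genes. Limma-voom was fitted to all 12127 genes that passed the filter with strain as a block, and a gene was called where its adjusted p (q) was 0.1 or lower and its log2 fold change was 1 or more in size. Of the 26 members tested, 17 were higher in liver than in kidney, where 15.6% of all genes were called in that direction, and 1 was higher in kidney, against 20.8% of all genes. Between lung and kidney 17 were higher in lung (25.5% of all genes) and 1 in kidney (20.6% of all genes). Between liver and lung 5 were higher in liver (23.9% of all genes) and 3 in lung (31.0% of all genes), so neither direction exceeded its background. Median log2 fold changes over the 26 were 1.58 for liver minus kidney, 1.40 for lung minus kidney and 0.11 for liver minus lung, beside 0, 0.04 and -0.06 over all genes. In bulk tissue, fewer cells of a type and less RNA per cell cannot be told apart.

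The most common pattern, held by 12 members, was higher in liver and in lung than in kidney with no call between liver and lung. It took in Isg15 (the ubiquitin-like modifier that gives the response its name), Ifit1, Oas1a, Oas2, Oas3, Usp18, Ifih1, Rtp4, Xaf1, Ifi35, Zbp1 and Parp14. Isg15 ranged from 0.477 to 11.1 CPM in liver with a median of 4.44, from 0.669 to 54.8 CPM in lung with a median of 1.93, and from 0 to 3.03 CPM in kidney with a median of 1.10. The ranges overlapped, yet liver was above kidney in 47 of 47 strains (log2 fold change 1.97 ± 0.15 SE, limma-voom q = 4e-23). Oas3, an oligoadenylate synthetase, had the largest difference between lung and kidney, with a median of 1.92 CPM in lung (range 0 to 104) and 0.287 CPM in kidney (range 0 to 1.62). Lung was above kidney in 46 of 47 strains, by a log2 fold change of 2.97 ± 0.19 SE (limma-voom q = 2.55e-27). Zbp1, a sensor of Z-form nucleic acids, ranged from 0 to 36.6 CPM in lung around a median of 2.08 and from 0 to 6.18 CPM in kidney around 0.422. Its difference was 2.39 ± 0.15 SE on the log2 scale (limma-voom q = 1.43e-27). Oas2 followed, with medians of 4.98 CPM in lung and 0.946 CPM in kidney and a log2 fold change of 2.22 ± 0.14 SE (limma-voom q = 4.45e-29).

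Bst2, Dhx58 and Stat2 stepped down from liver to lung to kidney, with a call in each comparison. Bst2 ranged from 30.9 to 146 CPM in liver (median 74.0), from 5.11 to 111 CPM in lung (median 13.4) and from 0.861 to 27.5 CPM in kidney (median 4.11). The liver and kidney ranges did not overlap, and the fitted difference was 16.9-fold (log2 4.08 ± 0.09 SE, limma-voom q = 7.21e-64). Liver was also 4.98-fold above lung (log2 2.31 ± 0.09 SE, limma-voom q = 4.74e-44). Dhx58, which encodes LGP2, the RIG-I-like receptor without signalling domains, had medians of 13.2, 5.0 and 1.5 CPM in liver, lung and kidney. It was higher in liver than in kidney in 47 of 47 strains, by 2.95 ± 0.09 SE on the log2 scale (limma-voom q = 1.48e-52). Stat2, the transcription factor of the pathway, had medians of 75.6, 33.7 and 14.8 CPM.

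Oasl1 and Ifi27 were higher in liver than in both other tissues, with no call between lung and kidney. Oasl1, which in mice restrains the translation of Irf7, ranged from 1.61 to 25.8 CPM in liver (median 11.8), against 0.186 to 35.4 CPM in lung (median 0.964) and 0 to 3.73 CPM in kidney (median 1.06). The lung range reached above liver through CC040; the next lung stood at 4.02 CPM. Liver exceeded lung by 3.01 ± 0.13 SE (limma-voom q = 1.7e-40) and kidney by 3.22 ± 0.13 SE (limma-voom q = 1.67e-42) on the log2 scale. For Ifi27, a small interferon-inducible membrane protein, the log2 fold change of liver over lung was 1.29 ± 0.15 SE (limma-voom q = 5.66e-13), at medians of 1.82 and 0.763 CPM. Its liver counts were low, with a median of 9 and at most 3 in 9 of 47 libraries. Its lung minus kidney change of 0.64 ± 0.16 SE (limma-voom q = 0.000116) missed only the threshold of 1.

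Oasl2, the paralog next to Oasl1 on chromosome 5, went the other way. It ranged from 6.01 to 170 CPM in lung with a median of 18.4, from 1.24 to 21.0 CPM in liver with a median of 4.36, and from 2.47 to 18.1 CPM in kidney with a median of 5.03. Lung was above liver in 47 of 47 strains (log2 fold change of liver minus lung -2.06 ± 0.08 SE, limma-voom q = 6.63e-47). Ifit2 and Ifit3, whose products bind viral RNA or the Ifit complex, were also higher in lung than in liver, in 45 and 44 of 47 strains, with log2 fold changes of liver minus lung of -1.79 ± 0.10 SE and -1.21 ± 0.11 SE. Ifit2 was also the one member called higher in kidney than in liver (-1.02 ± 0.10 SE, limma-voom q = 3.72e-17), at medians of 18.5 and 8.29 CPM. The one member called higher in kidney than in lung was Rsad2, which encodes viperin, a radical SAM enzyme that makes a chain-terminating nucleotide. Its median was 21.1 CPM in kidney, over 8.17 CPM in lung, and the difference of lung minus kidney was -1.01 ± 0.13 SE on the log2 scale (limma-voom q = 1.23e-11), higher in kidney in 42 of 47 strains. This lies at the threshold of 1, and the call was lost with DESeq2 size factors, total counts, TPM, the DESeq2 Wald test and without the strains of the shallowest libraries. Cmpk2, its neighbour, Ifi44, Ddx58, Eif2ak2 and Trim25 had no call in any comparison. Several of their differences missed only the threshold of 1. Ddx58 had 0.97 ± 0.05 SE for lung minus kidney (limma-voom q = 6.71e-32). Ifi44 had -0.99 ± 0.14 SE for liver minus kidney (limma-voom q = 3.67e-10). Kidney medians of Cmpk2 and Ifi44 were 9.79 and 11.6 CPM, beside 5.89 and 4.17 CPM in liver.

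Scaling decides the sign of several liver values. On total counts, the median of all genes shifted to -1.44 for liver minus lung and -0.95 for liver minus kidney. The liver against lung split of members there became 2 higher in liver (9.78% of all genes) and 17 higher in lung (61.6% of all genes). With DESeq2 size factors it was 3 (19.9% of all genes) and 6 (34.9% of all genes). The liver against kidney split became 10 higher in liver (8.09% of all genes) and 5 in kidney (47.8% of all genes) on total counts. The median of members less that of all genes stayed at 0.19 for liver minus lung and 1.55 for liver minus kidney, beside 0.17 and 1.58 with TMM. Statements that a member was higher in liver than in lung are thus relative to the other genes. Dhx58, Stat2 and Ifi27 in liver against lung lost their call and changed sign on total counts and on TPM. Pan-leukocyte markers moved with lung, where 3 of 3 tested were called higher than in liver and than in kidney, and macrophage markers were higher in liver than in kidney for 4 of 5. Their part in the members' differences was not tested.

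**Figure D2:**
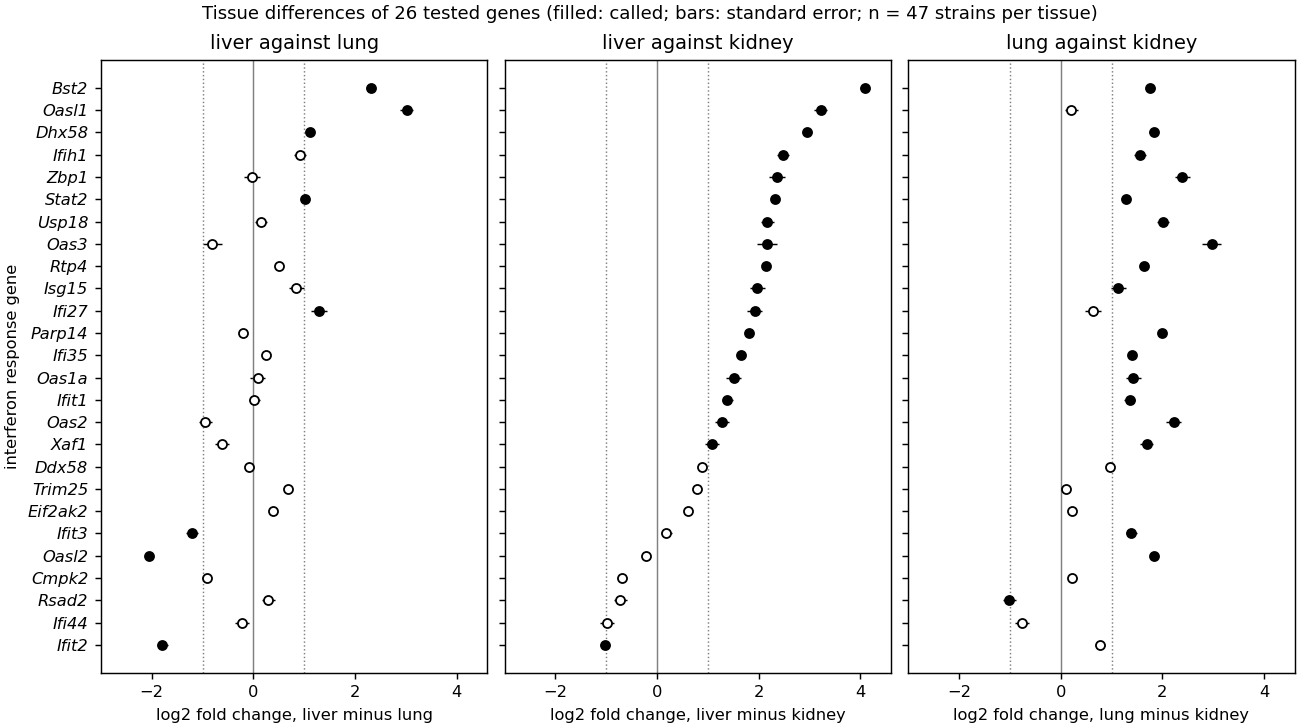
Log2 fold changes of the 26 tested genes in the 3 tissue comparisons, with the standard error as a bar, filled points for called genes and dotted lines at the threshold of 1. Most points lie right of 0 against kidney and on both sides of 0 for liver against lung.

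The rest of the pathway, from lists chosen with earlier results of these data known, was read in the same fit. Of 21 interferon ligand genes, 19 had no library above 3 counts in each tissue, and 1 (Ifnk, interferon-kappa) was tested, with no call. Of 8 tested receptor and JAK-STAT genes, 4 were higher in lung than in kidney (25.5% of all genes) and none the reverse (20.6% of all genes). Between liver and kidney 2 of the 8 were higher in liver (15.6% of all genes) and 2 in kidney (20.8% of all genes). Between liver and lung 0 were higher in liver (23.9% of all genes) and 3 in lung (31.0% of all genes), out of 8. Ifnlr1, the interferon-lambda receptor chain, had the largest change, -4.87 ± 0.10 SE for liver minus lung on the log2 scale, followed by its partner chain Il10rb at -2.0 ± 0.06 SE. Ifngr1, the interferon-gamma receptor chain, was higher in lung than in kidney by 1.88 ± 0.04 SE. Among 10 tested sensing genes, the kinase gene Ikbke was higher in liver than in kidney by 3.01 ± 0.09 SE, Tlr9 was lower in liver than in lung (-2.71 ± 0.16 SE) and Mavs, the adaptor of the RNA sensors, was higher in liver than in lung (2.66 ± 0.18 SE). Of 5 tested negative regulators, 1 (Socs3) was higher in liver than in kidney (15.6% of all genes), by 3.26 ± 0.12 SE. In liver against lung 1 (Pias1) was higher in lung (31.0% of all genes), at -1.08 ± 0.04 SE for liver minus lung.

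Other interferon-induced genes outside the 32 also ran lower in kidney. Of 29 tested, 25 were higher in lung than in kidney (25.5% of all genes) and 17 in liver than in kidney (15.6% of all genes), with none higher in kidney in either. Between liver and lung, 6 were higher in liver (23.9% of all genes) and 12 in lung (31.0% of all genes). The largest changes of this list were in Gm4951 (5.98 ± 0.16 SE) and Lgals9, which encodes galectin-9 (5.90 ± 0.11 SE), both for liver minus kidney, and in the same comparison Ifitm3, which blocks viral entry, differed by 3.93 ± 0.06 SE. Of 10 tested interferon-gamma targets, 6 were higher in liver than in kidney (15.6% of all genes) and none the reverse (20.8% of all genes). Between liver and lung 6 were higher in liver (23.9% of all genes) and 3 in lung (31.0% of all genes). Between lung and kidney 6 were higher in lung (25.5% of all genes) and 1 in kidney (20.6% of all genes). The GTPase gene Iigp1 was higher in liver than in kidney by 4.01 ± 0.17 SE, and the chemokine gene Cxcl9 was higher in liver than in lung by 3.71 ± 0.21 SE. Cd274, which encodes PD-L1, was lower in liver than in lung (-2.48 ± 0.08 SE).

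The second question was whether the members vary together between strains. They did in each tissue. A filter of over 1 CPM in 50% of strains left 26 members in liver, 24 in lung and 19 in kidney. Their median pairwise Pearson r of log2 CPM over 47 strains reached 0.409 in liver, 0.606 in lung and 0.382 in kidney. Over all pairs of genes that passed the same filter, the median was 0 in liver, then 0.013 in lung and 0.003 in kidney. Of the member pairs, 320 of 325 were positive in liver, 276 of 276 in lung and 160 of 171 in kidney. The first principal component held 45.5%, 61.8% and 43.4% of the members' variance, against 8.14%, 15.8% and 10.5% over all genes. These values are descriptions, since the libraries share depth and scaling.

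CC040 weighed on the lung value. Without that strain the lung median fell to 0.366, the first component held 42.7%, and 261 of 276 pairs were positive; without CC016 as well, the medians were 0.389 in liver, 0.316 in lung and 0.288 in kidney. Pairs on different chromosomes had medians of 0.411, 0.601 and 0.382.

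Usp18, the protease that removes Isg15 and also shuts off the receptor, followed the mean of the other members most closely in liver (r = 0.872) and lung (r = 0.905) and ranked 3 of 19 in kidney (r = 0.757). Rtp4, a chaperone for membrane receptors, reached r = 0.864 in liver and 0.880 in lung, and Parp14, an ADP-ribosyltransferase, 0.885 in lung and 0.841 in kidney. Ifit1 reached 0.833 in liver and 0.793 in kidney. Without CC016 and CC040 the highest were Rtp4 in liver (0.860) and lung (0.832) and Parp14 in kidney (0.788). At the other end Trim25 had r = 0.364 in liver, 0.447 in lung and 0.006 in kidney, and its lung value was 0.080 without CC040. Ifi35 had r = 0.264, 0.596 and 0.317, with 0.341 in lung without CC040. Ifi27 in liver (0.369), Ifit3 in lung (0.605) and Ifi44 in kidney (0.312) were the other low values. Without CC040 the lung value of Ifit3 was 0.34, and Ifit2 (0.31) and Bst2 (0.327) lay below it. In kidney Trim25 had the smallest coefficient of variation of the members that passed (15.7%), from 48.1 to 92.9 CPM around a median of 71.6. Usp18 in liver ran from 1.86 to 53.3 CPM around 10.9.

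Genes outside the 32 were ranked by their r with the mean member level in each tissue. In liver the first 5 were Irgm1 (r = 0.789), Gbp6 (0.775), Ddx60 (0.767), Herc6 (0.766) and Samd9l (0.758). In lung they were Dtx3l (0.901), Parp9 (0.889), Trim30a (0.857), Herc6 (0.846) and Ddx60 (0.845), and in kidney Gbp9 (0.828), Erap1 (0.785), Psmb8 (0.765), Ddx60 (0.759) and Parp12 (0.757). Ddx60, a helicase gene, was in all 3. Rank correlations over the same 47 strains were 0.790 for Ddx60 in liver, 0.598 in lung and 0.757 in kidney. For the 5 genes of each tissue in the order named, r was also taken without the 2 strains farthest from the median mean member level. It was 0.804, 0.738, 0.738, 0.705 and 0.715 in liver. In lung it was 0.809, 0.793, 0.67, 0.614 and 0.646, and in kidney 0.718, 0.653, 0.592, 0.747 and 0.603. For each gene or marker list, the mean standardized level of its genes that passed the filter, members left out, was also compared. That of the other interferon-induced genes followed the mean member level at r = 0.889 in liver, 0.964 in lung and 0.860 in kidney. The interferon-gamma targets followed it too, at 0.735, 0.694 and 0.769, or 0.781, 0.718 and 0.639 without the 2 farthest strains. The common level was thus not particular to the type I list. The receptor and JAK-STAT genes had 0.428, 0.108 and 0.246. Macrophage markers had r = 0.406, 0.505 and 0.493 and pan-leukocyte markers 0.276, 0.427 and 0.523. Without the 2 farthest strains these were 0.306, 0.18 and 0.401 for macrophage markers and 0.057, 0.353 and 0.345 for pan-leukocyte markers. Log2 total counts had 0.309, 0.144 and 0.278. Their part in the strain differences was not tested.

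The mean member level is the average over members of levels standardized across strains, in SD units. CC016 was the first of 47 in liver (1.34) and in kidney (2.23) and the second in lung (1.31). CC040 was the first in lung at 4.07, number 7 in liver at 0.72 and number 4 in kidney at 0.95. CC019 was near the bottom in each, at -0.99, -0.87 and -0.91, ranks 46, 46 and 47. The level in liver correlated with that in lung at r = 0.515 (rho = 0.728), liver with kidney at r = 0.642 (rho = 0.637) and lung with kidney at r = 0.621 (rho = 0.773). Without CC040 and CC016 these were 0.583, 0.584 and 0.659 (rho = 0.711, 0.598 and 0.751). No p is given for this mean, since its members were chosen with results known.

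**Figure D3:**
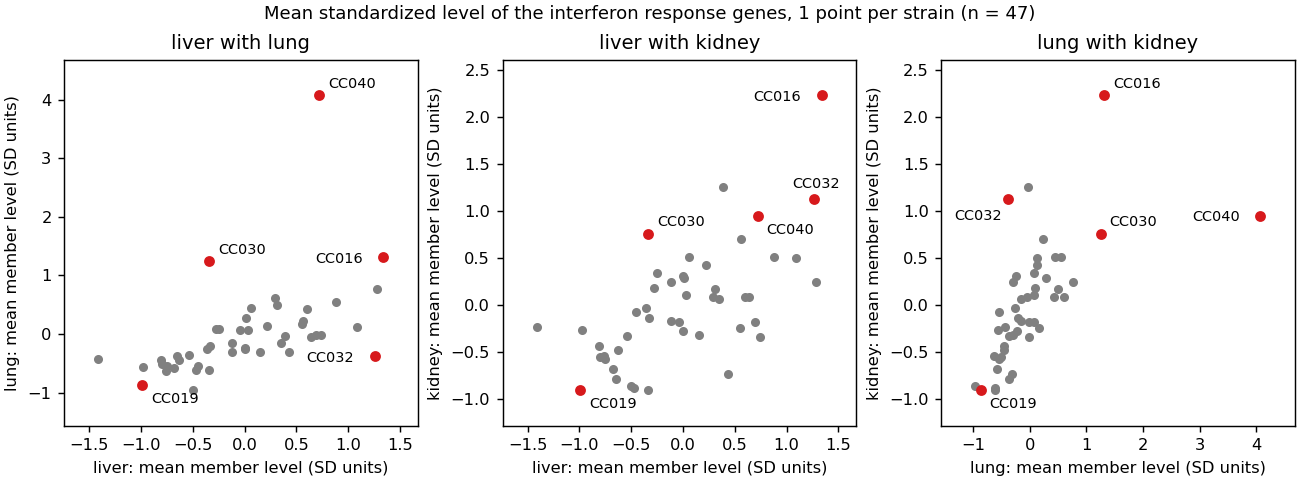
Mean member level of each strain, in SD units, in pairs of tissues, with 5 strains named in red. CC040 stands at 4.07 in lung and under 1 in liver and kidney, while CC016 is above 1.3 in all 3.

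CC040 and CC016 differed in which interferon genes were high. In the lung of CC040, 24 of 24 members were at their highest over the 47 lungs, beside 5.16% of all 10979 genes that passed the filter. Members stood at a median of 8.66 times the strain median (range 1.93 to 54.1), and 22 of the 24 were over 2-fold (5.72% of all genes). Oas3 had 104 CPM (54.1 times the median of 1.92), Isg15 54.8 CPM (28.3 times 1.93), Ifi44 88.2 CPM (20.5 times 4.30), Rsad2 163 CPM over a median of 8.17 and Oas2 98.9 CPM (19.9 times 4.98). The smallest folds were those of Trim25 (1.93), Ifi35 (1.96) and Ddx58, the gene for RIG-I (2.26). Summed over the 32 genes the library held 2640 CPM, while the next lung held 897 CPM and the median lung 487 CPM. The other tissues of the same mouse were milder. Its liver members had a median fold of 1.26 with 2 of 26 at their highest (1.48% of all genes). Its kidney members had 1.44 with 0 of 19 (1.45% of all genes). The lung library had 8254013 counts and was not among the shallow ones.

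The 7 interferon-gamma targets that passed the filter in lung stood at a median of 3.63 times the strain median in CC040. Of the 7, 6 were over 2-fold (5.72% of all genes). Summed, they held 507 CPM against a median of 127 CPM, second among the 47 lungs to CC016, which was the highest for all 7. Irf1, an interferon-inducible transcription factor, was at 0.954 times. In the same lung the 29 other interferon-induced genes that passed stood at a median of 3.16 times, below the interferon-gamma targets. Of these 29, 23 were at their highest (5.16% of all genes). In CC016 the order of members and interferon-gamma targets was turned around. There the interferon-gamma targets stood at median folds of 16.4 in liver (9 genes), 12.8 in lung (7 genes) and 25.7 in kidney (7 genes), and in each tissue every one of them was at its highest over the 47 strains. Members of the type I list stood at median folds of 1.78, 2.02 and 2.68, and the other interferon-induced genes at 2.22, 1.51 and 1.71. Summed interferon-gamma targets held 2850 CPM in the liver of CC016, against a median of 187 and a next highest liver of 591 CPM. In its kidney the sum was 1780 CPM against a median of 63.7 CPM, and in its lung 1550 CPM against 127 CPM. Cxcl9 in liver reached 500 CPM over a median of 6.80, and Gbp6, an interferon-inducible GTPase gene, reached 217 CPM in kidney over 3.05. All values are of 1 mouse per strain, with no replicate and no test.

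Among the members, those furthest above the median in CC016 were Zbp1 (8.99 times in liver, 11.5 times in lung), Ifit2 (6.90 times in liver), Bst2 (6.70 times in kidney) and Parp14 (6.14 times in kidney). Ifng, the interferon-gamma gene, was highest in CC016 in each tissue, at 2.89 CPM in liver (11 counts), 0.939 CPM in lung (13 counts) and 0.561 CPM in kidney (5 counts), and was at 0 in 39, 24 and 37 of the 47 libraries. Summed over the 21 ligand genes, Ifng among them, the lung of CC040 held 0.775 CPM against a median of 1.55, and the liver of CC016 held 3.41 CPM against 1.55. The liver of CC016 also held the most pan-leukocyte marker reads (the next liver held 36.2 CPM and the median liver 16.1 CPM), and the most macrophage marker reads, 776 against 196 CPM. In the lung of CC040, neutrophil markers held 105 CPM against a median of 10.7 (the second highest lung), macrophage markers 290 against 128 CPM, and T and NK cell markers 17.9 against 10.4 CPM. Plasmacytoid dendritic cell markers were highest in this lung (18.5 against 6.56 CPM) and endothelial markers lowest (651 against 973 CPM). In the lung of CC016, T and NK cell markers held 17.5 CPM. In its liver they were the highest of 47 (14.2 against 0.781 CPM), as were neutrophil markers (27.3 against 0.643 CPM). The part of these cells in the members' levels was not tested.

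**Figure D4:**
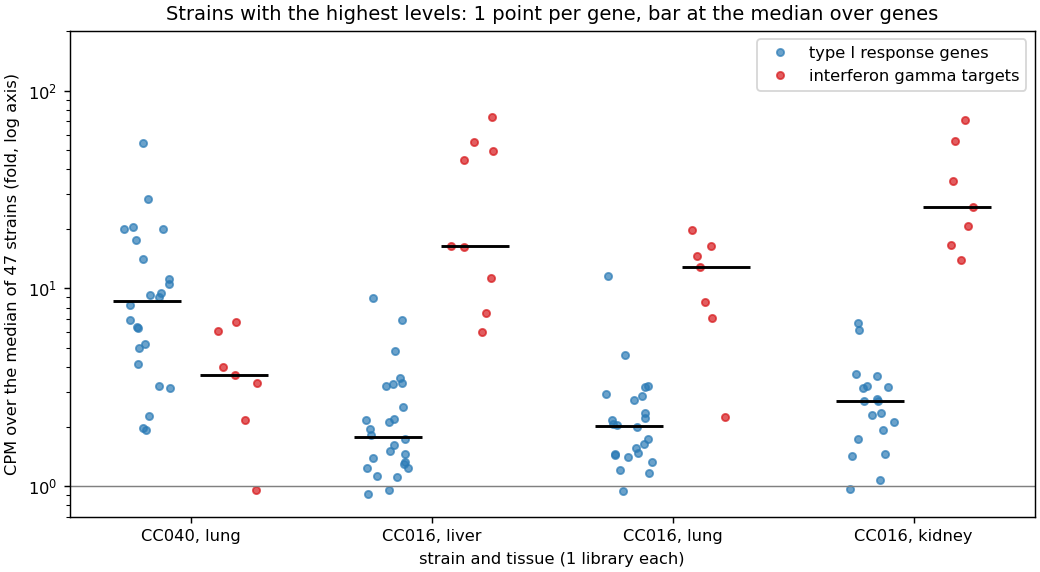
Fold over the median of 47 strains, on a log axis, for each type I response gene (blue) and each interferon-gamma target (red) that passed the filter, in the lung of CC040 and the 3 tissues of CC016, with a bar at the median over genes. In CC040 the blue bar (8.66) is above the red (3.63), and in CC016 the red bars (16.4, 12.8 and 25.7) are above the blue.

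The third comparison asked whether a strain high for a member in 1 tissue is high for it in another. Levels were rank-transformed to normal scores over the 47 strains, and r between tissues was tested by 100000 permutations of the strains, with q over all genes of the pair. Of the members tested, 16 of 24 had a positive call between liver and lung (13.0% of all genes), 14 of 19 between liver and kidney (22.6%) and 16 of 18 between lung and kidney (17.1%). Median r was 0.462, 0.498 and 0.512, beside 0.138, 0.184 and 0.157 over all genes. None had a negative call. Without CC016 and CC040 the counts were 15, 10 and 12. On TPM with no TMM scaling 1, 11 and 2 members were called, so the counts for liver with lung and for lung with kidney did not hold. Shares of all genes under these alternatives are not given here. Whether the members kept their excess over all genes can therefore not be told.

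Oasl2 had the highest r in each pair, 0.706 for liver with lung (rho = 0.744), 0.756 for liver with kidney (rho = 0.780) and 0.719 for lung with kidney (rho = 0.749). Each p was 1e-05, the smallest the permutations can give, for r and for rho alike, with q of 0.000836, 0.00051 and 0.000621. Ifi44 came next, at 0.661, 0.690 and 0.708 with the same p and q. Dropping the pair of strains farthest out on the first tissue gave r of 0.697, 0.754 and 0.69 for Oasl2 and 0.634, 0.664 and 0.742 for Ifi44. Next were Rtp4 for liver with lung (r = 0.599, rho = 0.648, permutation q = 0.00118), Usp18 for liver with kidney (r = 0.633, rho = 0.622, permutation q = 0.000755) and Ifit1 for lung with kidney (r = 0.677, rho = 0.684, permutation q = 0.000621). The lowest values were those of Trim25 (r = 0.011, q = 0.977) and Ifit2 (r = 0.151, q = 0.581) for liver with lung, of Trim25 (r = 0.121, q = 0.612) and Cmpk2 (r = 0.236, q = 0.268) for liver with kidney, and of Rsad2 (r = 0.201, q = 0.399) and Bst2 (r = 0.316, q = 0.142) for lung with kidney. Trim25 was called between lung and kidney, at r = 0.511 (q = 0.00521).

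Since the members share a common level, each member was also fitted on the mean of the other members in the tissue and the residuals compared between tissues. Then 6 of 24 members kept a positive call for liver with lung (12.0% of all genes), 5 of 19 for liver with kidney (20.5%) and 8 of 18 for lung with kidney (16.0%). For liver with kidney the members' share is near that of all genes. Median residual r was 0.248, 0.172 and 0.295, beside 0.134, 0.177 and 0.152 over all genes. Ifi44, Ifit3, Oasl2 and Ifi35 were called in all 3 pairs. Residual r was 0.642, 0.575 and 0.737 for Ifi44, 0.684, 0.566 and 0.672 for Ifit3, 0.523, 0.553 and 0.590 for Oasl2, and 0.398, 0.550 and 0.438 for Ifi35. Usp18 and Rtp4, the closest followers of the common level in liver, had residual r of 0.256 and 0.313 for liver with lung, 0.064 and 0.064 for liver with kidney, and -0.005 and -0.017 for lung with kidney, with no call. Parp14 and Ifit1, the closest followers in kidney, kept a call for lung with kidney, at residual r of 0.488 (permutation q = 0.00922) and 0.384 (permutation q = 0.0558).

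The 4 genes did not single out the same strains. Ifi44 was low in all tissues in 5 strains (CC019, CC023, CC038, CC043 and CC062), counted as strains among the lowest 10 in each tissue. In kidney it had 1.62 CPM in CC038 and 2.49 CPM in CC025, against a median of 11.6 and a highest level of 26.2 CPM in CC032. Oasl2 was by contrast among the highest 10 in each tissue in CC038, along with CC016, CC033, CC040 and CC068, and had 11.4 CPM there in liver over a median of 4.36. Ifit3 was among the lowest 10 in each tissue in CC002, CC004 and CC049, with 1.42 and 1.5 CPM in the kidneys of CC002 and CC004 over a median of 7.03. Reads that align equally well to Ifit3b and Ifit3 are not unique, and whether strains differ in this was not tested. Ifi35, a leucine zipper protein, was low throughout in CC021, CC036 and CC045. Its kidney level in CC045 was 3.52 CPM over a median of 8.92, and its lung level in CC045 was 18.1 CPM over 22.7.

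**Figure D5:**
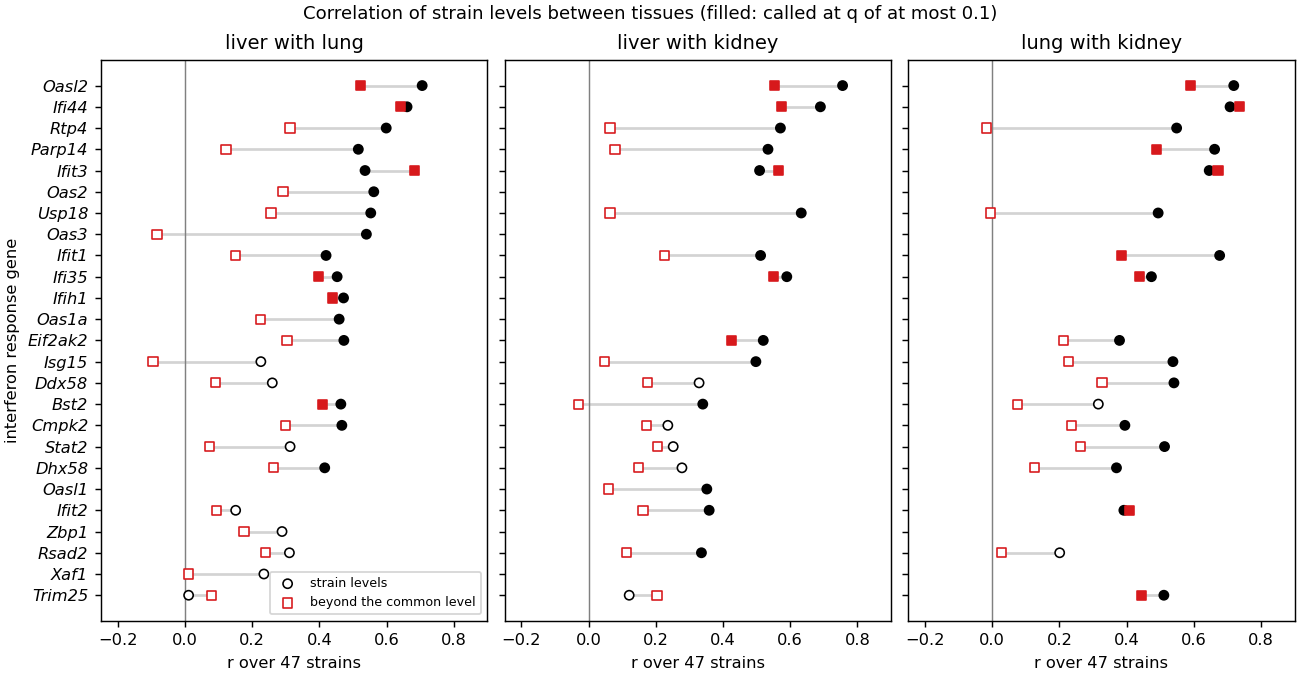
Correlation r of each gene's strain levels between tissues (black circles) and of its residuals after a fit on the mean of the other members (red squares), filled where called at q of at most 0.1. For Ifi44 in lung with kidney the pair is 0.708 and 0.737, while for Usp18 it is 0.494 and -0.005.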

How the data were processed

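RNA-seq was 50-base, single-end, after ribosomal depletion. The authors aligned reads with STAR 2.5.3a to strain pseudo-genomes on mm9 and counted uniquely aligned reads per gene with RSEM; the deposited tables hold expected counts, TPM and FPKM, per the file headers. Expected counts were rounded, which changed 25 values. TPM was used for levels between genes and as an alternative, and the deposited FPKM was not used. The 32 members, the pathway and marker lists, and the tests were chosen with earlier results of these data known.

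Tissues were compared with limma 3.58.1 (voom, TMM factors of edgeR 4.0.16, strain as block), in genes over 1 CPM in 30% of libraries. Agreement between tissues used genes over 1 CPM in 50% of strains in both tissues. Adjustment was Benjamini-Hochberg. Libraries of 1 strain come from the same mouse, which is the source of the pairing. Their deviations from tissue means correlated at a median of 0.161 to 0.200 over genes, against -0.005 or -0.006 between strains. The best match was the same strain in 36 of 47 for liver with lung, 43 for liver with kidney and 32 for lung with kidney. The lowest r within a strain was 0.002, -0.062 and 0.015, so for some strains the pairing rests on the labels alone. Gene positions came from GENCODE on NCBIM37 (mm9), and promoters from RefSeq. Named in full were up to 3 called members per direction and comparison with the largest change, 3 highest and 2 lowest r between tissues, and 3 highest and 3 lowest r with the other members. Outside the list these were the first 5 genes by r with the mean member level and up to 3 genes per pathway list. Other values in single strains were chosen after they were seen. The authors fitted sequencing batch as a covariate, but the labels give no batch, so no batch term was fitted here. DESeq2 1.42.0 and edgeR's quasi-likelihood test were alternatives. R 4.3.3 and Python 3.11.15 were used, and both tests were tested on simulated data.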

Additional observations from a re-analysis of the deposited data

How the results depend on the processing

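Strain was a block because its libraries come from the same mouse. Without the replicate block, 2 members (in place of 1) were higher in kidney than in liver (21.3% of all genes). Against lung, 2 (in place of 1) were higher in kidney (20.6% of all genes), and no other count moved by over 1.5 times. Scaling moved the most. For liver against lung, members higher in liver and in lung numbered 3 and 6 with DESeq2 size factors and 2 and 17 on total counts. They numbered 1 and 14 on log2(TPM + 1) and 1 and 17 on log2(TPM + 0.1). Shares of all genes in the same order were 19.9% and 34.9%, 9.78% and 61.6%, 8.28% and 57.5%, and 9.1% and 64.3%. The DESeq2 Wald test called 3 in liver (19.8% of all genes). With no fold-change threshold the members higher in liver and in lung were 12 (45.4% of all genes) and 8 (48.2% of all genes). For liver against kidney, total counts gave 10 higher in liver and 5 in kidney, log2(TPM + 1) 6 and 4, and log2(TPM + 0.1) 11 and 5. Shares of all genes were 8.09% and 47.8%, 6.76% and 34.6%, and 7.91% and 47%. In the kidney direction there were 2 with size factors, the DESeq2 Wald test, no filter and without shallow libraries. The same count held without CC016 and CC040, an alternative added after seeing the data. In these settings 14.4% to 23.4% of all genes were called in that direction. With no fold-change threshold there were 5 (44% of all genes). For lung against kidney the kidney direction had 0 with size factors, total counts, both TPM scales, the DESeq2 Wald test and without shallow libraries. There 12.8% to 20.6% of all genes were called in that direction. With no fold-change threshold it had 2 (44% of all genes).

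These members, called under at least 1 of the scalings compared, changed sign for liver minus lung on total counts, log2(TPM + 1) and log2(TPM + 0.1) in turn: Ifit1 (-1.39, -1.38, -1.52), Stat2 (-0.33, -0.43, -0.44), Oas1a (-1.25, -1.02, -1.38), Usp18 (-1.38, -1.41, -1.53), Dhx58 (-0.19, -0.28, -0.31), Ifi27 (-0.07, -0.12, -0.25), Ifi35 (-1.14, -1.23, -1.26) and Eif2ak2 (-1.0, -1.07, -1.11). Rsad2 did so on total counts (-1.02) and log2(TPM + 0.1) (-1.13). Isg15, Ifih1, Rtp4 and Trim25 also turned negative on all 3 scales, with no call there or with TMM.

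Between tissues, TPM without TMM left 1 member called for liver with lung and 2 for lung with kidney, with Parp14 at r = -0.057 for liver with lung, and the cause was not tested. At q of at most 0.01, liver with lung had 8 members by levels and 3 by residuals, and lung with kidney had 4 by residuals. No share of all genes is given for these counts, so the members' excess cannot be judged from them. Median pairwise r was 0.561, 0.712 and 0.583 (liver, lung, kidney) on log2(TPM + 1) and 0.550, 0.707 and 0.560 on log2(TPM + 0.1). In lung it was 0.427 on rank values, 0.366 without CC040, and 0.316 without CC016 and CC040, which are also its most extreme strains. Depth limits genes near the floor in the shallowest livers.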

Other observations

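Some strains ranked differently by tissue in the mean member level. CC032 was number 3 of 47 in liver (1.26) and in kidney (1.13), and was number 34 in lung (-0.38). CC030 was number 3 in lung (1.25) and number 5 in kidney (0.76), and was number 32 in liver (-0.34). CC025 stood at 0.43 in liver and -0.74 in kidney, and CC043 was the lowest liver (-1.41) with -0.24 in kidney. In the liver of CC032 the members at their highest were Usp18 (53.3 CPM over a median of 10.9), Rsad2 (31.8 over 11.4 CPM), Cmpk2 (15.5 over 5.89 CPM) and Bst2 (146 over 74.0 CPM). CC030 was second to CC040 in lung for Oas1a (11.0 CPM over a median of 2.11), Oas3 (14.0 over 1.92 CPM) and Mx1 (4.4 over 0.403 CPM). Each strain is 1 mouse, so these values have no replicate, and the differences between tissues were not tested.

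The number of strains that were highest for a member differed by tissue. In liver 11 strains were each the highest for at least 1 of 26 members, and in kidney 4 strains for 19 members. CC016 took 14 of these 19 (2.02% of all genes in kidney). In lung 1 strain, CC040, was the highest for all 24 (5.16% of all genes).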
